A study of Drosophila melanogaster with 4 samples.

Results

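Broad H3K4me3 domains are here the widest unbroken peaks called for this mark in fly embryos, namely the 543 peaks of 4 kb or more on the 6 chromosome arms. They were chosen by their width alone, as end minus start plus 1 base, from 6715 peaks on 2L, 2R, 3L, 3R, 4 and X, in a list of 7425 peaks over 15 sequences. They are set beside the 3418 peaks of 1 kb to under 4 kb on the same arms, called comparison peaks below. The study has 2 ChIP libraries, made with an antibody against histone H3 trimethylated at lysine 4, and 2 input libraries of chromatin DNA, and the list does not say which of them it was called from. All were made from whole embryos aged 8 to 16 h of the strain Y cn bw sp, cross-linked in 1.8% formaldehyde for 15 min. Both groups shared 1 genotype. It carries the marker alleles y[1], cn[1], bw[1] and sp[1], with oc[R3.2], lab[R4.2] and CG33964[R4.2], and also Rh6[1], GstD5[1], LysC[1], MstProx[1], Gr22d[1] and Gr22b[1]. Whole embryos mix all tissues, so a domain may be marked in many cells or in few, and these cannot be told apart.

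H3K4me3 sits on nucleosomes around the start of genes that are being transcribed or are ready to be. In flies the enzyme Set1 places most of it, and the related enzymes Trithorax and Trithorax-related act at more restricted sets of genes. At most active genes the mark covers a short stretch just downstream of the start site. In mammals, stretches that reach far into the gene body are known from genes that define the identity of a cell type. Positions below are on FlyBase release 5, per the file headers. The gene table used here is of release 6, so no gene was assigned to a domain and no sequence is printed.

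Each peak has a position and a score, a value set by the authors' peak calling on a scale that the sources used here do not state. The list carries no column per library, so no value has a replicate error and the depth is unknown. Width, score and position all come from 1 peak call. The differences below are therefore descriptions with no test, and the 95% exact Clopper-Pearson intervals of shares cover counting error only. They treat peaks as independent, which neighbouring peaks are not.

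The domains were few but covered much of the marked length. They made up 8.09% of the peaks on the 6 arms (7.45 to 8.76) and 13.7% of those of 1 kb or more (12.7 to 14.8), and their 3.18 Mb was 27.9% of the 11.4 Mb under all peaks. Widths ran from 4000 to 17881 bp around a median of 5238 bp, and the middle part of them lay between 4587 and 6559.5 bp (quartiles). Most were under 6 kb: 236 measured 4 kb to under 5 kb, 126 measured 5 kb to under 6 kb, 120 measured 6 kb to under 8 kb, 42 measured 8 kb to under 10 kb, and 19 reached 10 kb. Peaks lay on both sides of the threshold within a few bases of it. The narrowest domain, at 2L 6562247 to 6566246, was 4000 bp wide with a score of 209.23, and the next were 2 peaks of 4008 bp with scores of 355.92 on 2L and 334.61 on 3L. Just under the threshold lay a peak of 3991 bp on 2R with a score of 349.87 and one of 3990 bp on 3L with a score of 371.15.

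The widest domains differed in their surroundings. The domain at 3R 16400546 to 16418426 was 17881 bp wide and scored 393.19. On its left the nearest peak lay 13452 bp away and was only 473 bp wide, with a score of 10.57. On its right a peak of 1484 bp with a score of 294.87 began after 332 bp. It had a long stretch with no peak on its left and a strong peak close by on its right, and the nearest other domain was 509388 bp away. The widest domain of 2L, at 3452384 to 3470044, spanned 17661 bp and scored 363.6, with the next domain 42218 bp away. X held the domain at 1757295 to 1773737, which spanned 16443 bp and scored 385.71, in a crowded stretch with a peak of 756 bp and a score of 9.88 only 64 bp to its left. The domain at X 6179839 to 6195385, which spanned 15547 bp and scored 281.05, stood apart, at 2452 bp from the nearest peak and 404483 bp from another domain. The widest of 2R, at 19916726 to 19931846, had 15121 bp, a score of 345.39 and another domain 283 bp away. The widest of 3L, at 1300416 to 1313252, had 12837 bp, a score of 482.86 and another domain 351 bp away. Among the 19 domains of 10 kb or more, 8 had another domain within 1 kb and 9 within 20 kb, so very wide domains were found both alone and side by side.

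Among the domains score was far from proportional to width, so the wider ones had less score per kb. The median score was 292.5 for the domains and 199.1 for the comparison peaks, with quartiles of 242.6 and 347.9 against 116.8 and 279.6. Divided by width, the median was 52.0 per kb for the domains and 96.1 per kb for the comparison peaks, with quartiles of 41.1 and 64.4 against 64.4 and 136.2. The order of the classes was thus opposite on these measures. Median scores by width were 268.3 at 4 kb to under 5 kb, 292.9 at 5 kb to under 6 kb, 321.5 at 6 kb to under 8 kb, 304.2 at 8 kb to under 10 kb and 340.1 at 10 kb or more. Comparison peaks of 2 kb to under 3 kb had a median of 251.6 and those of 3 kb to under 4 kb one of 264.4, close to the narrowest domains, while those of 1 kb to under 2 kb had 148.0. Median score per kb was 100.4 at 1 kb to under 2 kb, 103.4 at 2 kb to under 3 kb and 76.4 at 3 kb to under 4 kb. It was 60.9 in the narrowest class of domains, 52.9 and 47.1 in the next classes, 35.2 at 8 kb to under 10 kb and 23.8 at 10 kb or more. Across peaks, Spearman's rho between width and score was 0.22 over the 543 domains and 0.50 over the 3418 comparison peaks, and between width and score per kb it was -0.56 and -0.071. These are descriptions across peaks of 1 list, and width enters the second pair by division. Whether the score is that of a peak's best point or of its whole length is not stated.

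**Figure D1:**
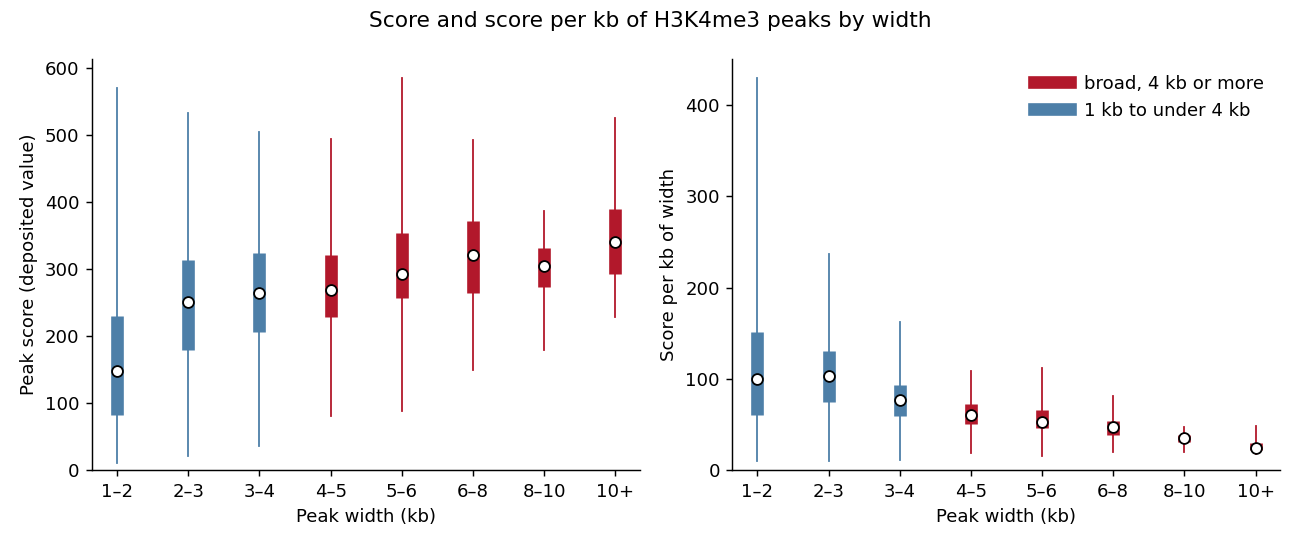
Score (left) and score per kb of width (right) of H3K4me3 peaks on the 6 arms by width class in kb, on linear axes. Circles are medians, thick bars run from the lower to the upper quartile and thin lines from the lowest to the highest peak. Median score per kb is 60.9 in domains of 4 kb to under 5 kb and 23.8 in those of 10 kb or more, while median score stays between 268.3 and 340.1.

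Low scores were rare among the domains. Only 3 of 543 scored under 100 and 48 scored from 100 to under 200, against 685 and 1033 of the 3418 comparison peaks. Scores of 400 or more were reached by 49 domains (9.02%) and by 139 comparison peaks (4.07%). The share of peaks under 200 fell with width on both sides of the threshold. It was 66.8% at 1 kb to under 2 kb, 31.1% at 2 kb to under 3 kb and 22.4% (18.6 to 26.5) at 3 kb to under 4 kb. At 4 kb to under 5 kb it was 14.4% (10.2 to 19.5), with an interval that overlaps that of the class before. It was 0 of 19 at 10 kb or more, which with so few peaks allows up to 17.6%.

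The weakest domains were of different kinds. The lowest score, 80.7, belonged to the domain at 3L 15329914 to 15334169, with 4256 bp and 18.96 per kb. It was also among the most solitary, since its nearest peak of any width, another domain, was 96415 bp to the left, and the next on the right was 157827 bp away. Another 3 of the 5 weakest abutted stronger peaks, though a close neighbour was common, with a peak within 1 kb of 452 of all 543 domains (83.2%). At 2R 20455613 to 20461288 a domain of 5676 bp scored 88.61, which is 15.6 per kb and the lowest of all domains, and a peak scoring 116.05 lay 101 bp to its left. At 2R 19778113 to 19782434 a domain scored 91.37, and 199 bp away lay a peak scoring 246.54. At 3R 20896714 to 20901858 a domain of 5145 bp scored 105.89 and its left neighbour, a domain of score 323.64, ended 100 bp before it. The fifth, at 2R 7787003 to 7791503, scored 107.22, and the peak to its left, 4176 bp away, scored 366.89.

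At the other end, the highest score per kb was 111.7, in the domain at 2L 1609009 to 1614246, which also had the highest score, 585.19, in 5238 bp. Next came the domains at 2L 6557681 to 6561714 with 109.1 per kb, at 2R 8474672 to 8478972 with 107.8, at 2L 9964396 to 9968586 with 104.0 and at X 7827719 to 7831986 with 103.6. The first of these 5 was 5238 bp wide and the others were between 4034 and 4301 bp. High score and great width coincided in the domain at 2R 18297207 to 18307912, with 524.59 over 10706 bp, and in the 3L domain of 12837 bp named above. That 3L domain is 1 of the 10 widest as well as 1 of the 10 highest in score. Another domain lay within 20 kb of 2 of the 10 highest and of 6 of the 10 widest, against 257 of all 543 domains (47.3%). With only 10 domains in each set, a difference from that share was not tested.

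Domains were scarce on X and absent from chromosome 4. They made up 7.22% of X peaks of 1 kb or more (51 of 706, 5.43 to 9.39) and 15.3% of those on the 4 large autosomal arms (492 of 3208, 14.1 to 16.6). The autosomal arms lay between 13.7% on 3L (106 of 771) and 17.1% on 2L (120 of 701), which is 14.8% (101 of 682) without the group of 19 described below and then less than the 16.0% of 2R. The interval of each autosomal arm lay above that of X, also for 2L without that group. In peaks per Mb of span, X had 2.28 domains and the large autosomal arms 5.10, while comparison peaks had similar densities, at 29.3 on X and 28.2 per Mb on the autosomal arms. Among the domains score per kb was similar, with a median of 51.8 on X and 52.0 on the autosomal arms, at median widths of 4845 and 5377 bp. Yet 3 of the 51 X domains reached 10 kb, against 16 of 492 on the autosomal arms. Chromosome 4 had 47 peaks of 1 kb or more and 0 domains, which allows a share of up to 7.55% (exact upper limit). Its widest peak, at 682209 to 686119, measured 3911 bp with a score of 404.24. Its comparison peaks had the highest median score per kb of any arm, 141.8. Those of X had the lowest, 90.2, against 97.9 on the large autosomal arms. The median score of X comparison peaks was also the lowest of any arm, at 185.0 against 203.4 on the large autosomal arms. With peaks less than 500 bp apart merged the shares were 23.4% on X and 32.0% on the large autosomal arms. In percentage points these were about as far apart as in the list, but both were larger, so relative to the autosomal share X was nearer. With those less than 1000 bp apart merged the shares were closer still, at 32.6% and 36.9%, and the interval of the X share took in the autosomal one. The sex of the embryos is not among the labels, and the part that X copy number plays was not tested.

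**Figure D2:**
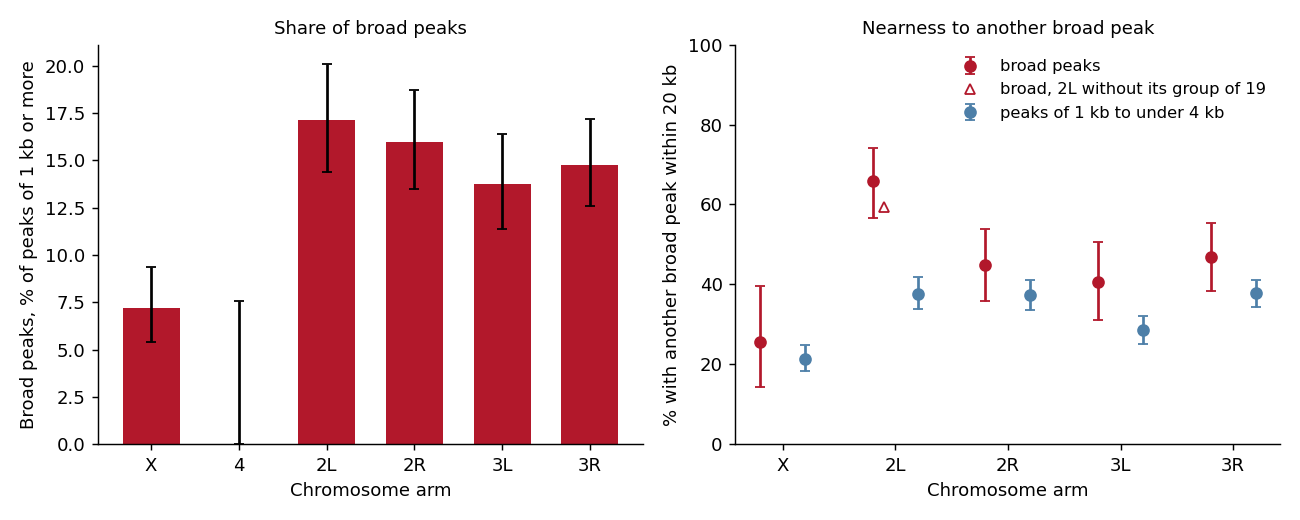
Left, domains as a percentage of peaks of 1 kb or more on each arm; right, percentage of domains (red) and of comparison peaks (blue) with another domain within 20 kb on each large arm. Bars and points are shares with exact 95% intervals, and the open triangle gives 2L without its group of 19 domains. X has 7.22% domains, below each large autosomal arm, and chromosome 4 has 0.

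Along the arms the number of domains was uneven, and so was that of comparison peaks. In complete 1 Mb bins the variance over the mean, which also depends on how many peaks a bin holds, was 1.29 to 3.92 for domains on the 5 large arms and 1.77 to 5.64 for comparison peaks, and on each arm it was the greater one for comparison peaks. The 3.92 is that of 2L with the group of 19 described below. The span of each large arm was cut into 5 equal parts. On X their share of peaks of 1 kb or more was 13.4% in the first part (19 of 142, 8.25 to 20.1), 7.33%, 4.96% and 3.53% in the next parts and 7.77% in the last. The fourth part of X held 6 domains beside 164 comparison peaks, so it was rich in ordinary peaks. On 2L the share was 22.8% in the first part and 7.89% in the fourth, and on 2R it was 8.27% in the first and 20.7% in the fourth. On 3L and 3R it stayed between 10.2% and 18.01%. The last part of 2L had 22.4%, but 11.7% (6.82 to 18.3) without the group of 19. In complete 1 Mb bins of the 5 large arms, the median was 4 domains and 28 comparison peaks, and 7 of 116 bins had 0 domains, while none of the 116 was without a comparison peak. The fullest bin, 2L 21 to 22 Mb, held 21 domains, of which 19 belong to that group. It was followed by 2R 19 to 20 Mb with 14 and 3R 5 to 6 Mb with 13. The 10 fullest bins, picked for their number of domains, held 22.01% of the domains and 10.5% of the comparison peaks.

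**Figure D3:**
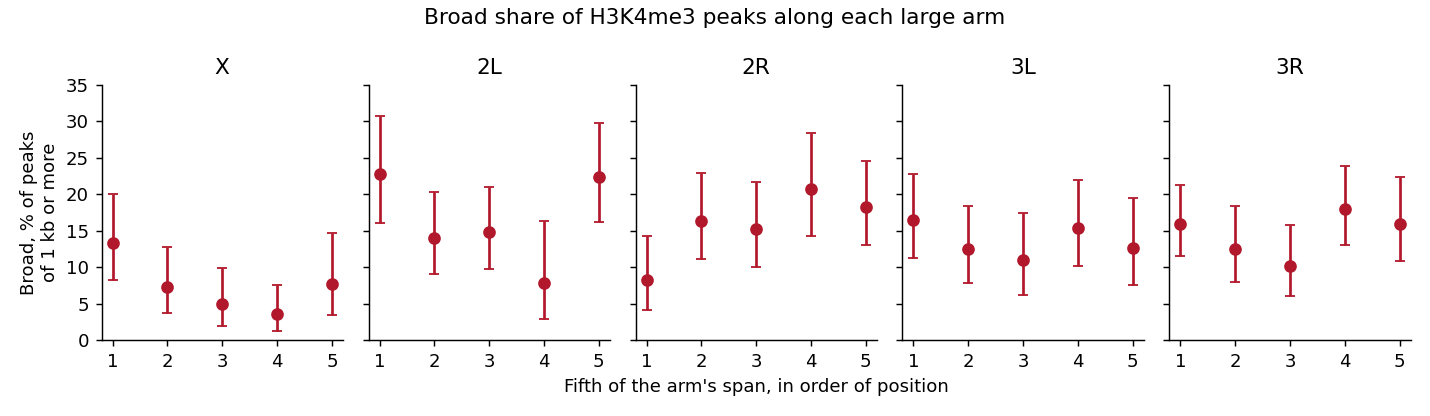
Domains as a percentage of peaks of 1 kb or more in each of 5 equal parts of the span of X, 2L, 2R, 3L and 3R, with exact 95% intervals. On X the share is 13.4% in the first part and 3.53% in the fourth; the last part of 2L, at 22.4%, includes the group of 19 domains.

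Domains lay closer to one another than comparison peaks lay to them. The distance to the nearest other domain had a median of 24.7 kb from a domain and 53.5 kb from a comparison peak, measured in both cases to the same 543 domains. Another domain was within 20 kb of 47.3% of the domains (257 of 543, 43.1 to 51.6) and of 32.2% of the comparison peaks (1101 of 3418, 30.6 to 33.8). The 3418 include 47 peaks of chromosome 4, which has no domain, so none of these could count as near one. The comparison median, over 3371 peaks, leaves them out, while the shares over all arms and by width below do not. At 1 kb the shares were 20.3% and 9.16%, or 17.4% and 9.13% without the group of 19 on 2L described below, and at 100 kb they were 77.0% and 62.0%. The share at 20 kb was the greater one for domains on each of the 5 large arms. On 2L it was 65.8% against 37.7%, on 3R 46.8% against 37.8%, on 2R 44.8% against 37.3%, on 3L 40.6% against 28.6%, and on X 25.5% against 21.4%. The intervals of the 2 classes were apart on 2L and overlapped on the other arms, widely on X with its 51 domains. Without the group of 19 the shares were 45.4% (41.1 to 49.8) and 32.2% over all arms, and 59.4% and 37.3% on 2L, where the intervals were still apart. The median distances over all arms were then 28.3 kb and 53.9 kb. After merging of peaks less than 500 bp apart, the shares over all arms were closer, at 51.9% of 892 merged domains and 42.5% of 2090 merged comparison peaks. The difference was about as large among peaks scoring 200 or more, where 47.0% of 492 domains and 32.1% of 1700 comparison peaks had another domain within 20 kb. By width there was no step at 4 kb. The share at 20 kb was 29.8% at 1 kb to under 2 kb, 33.4% at 2 kb to under 3 kb and 39.8% (35.3 to 44.5) at 3 kb to under 4 kb. It was 47.5% (40.9 to 54.0) at 4 kb to under 5 kb and 42.1% at 5 kb to under 6 kb. The intervals on either side of the threshold overlap.

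Linking domains up to 20 kb apart gave 102 groups of 2 or more, with 257 domains, and left 286 alone. There were 76 pairs, 16 groups of 3, 7 of 4, 2 of 5 and 1 of 19. 3R had 29 groups, 2L 27, 2R 22, 3L 19 and X 5. Of the 155 linked neighbours, 70 had no peak between them, 64 had at least 1 peak of 1 kb or more between them and 21 had only smaller peaks. The group of 19 supplies 18 of the 70, so 52 of the 137 other pairs had no peak between them. Grouped and lone domains had similar widths and scores. The median width was 5376 bp in groups and 5192 bp alone, the median score 288.1 and 295.7, and 10 of the 19 domains of 10 kb or more were alone.

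The group of 19, at 2L 21416412 to 21536150, was evenly spaced apart from 3 longer steps. Its domains filled 87.7% of 119739 bp, with no other peak in that span. Of them 16 were under 6 kb, with widths from 4488 to 5675 bp and a median of 4702 bp, and the other 3 were 9254, 9759 and 9765 bp wide. Among the 18 steps from the start of one domain to the start of the next, 15 were under 6 kb and ran from 4830 to 5750 bp with a median of 5044 bp. The 3 wider domains were followed by the next one after 10077, 18417 and 10224 bp, from start to start. Gaps were 75 to 459 bp except for 1 of 9163 bp, which no peak filled. Scores were alike too, from 190.16 to 256.44 with a median of 229.6, below the median of all domains. Whether this span is a tandem repeat was not examined, and the sources used here do not state how reads that match several places were treated. The 19 may therefore not be independent domains, and several of the main results are given without them as well. They are 15.8% of the 120 domains of 2L.

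The 2 groups of 5 had longer steps. The 5 domains at 2L 9888026 to 9968586 had steps from 9995 to 24801 bp, widths of 7084, 5420, 5010, 9440 and 4191 bp, and scores of 292.52, 379.54, 405.36, 374.14 and 435.98. Over all steps, the coefficient of variation was 0.35 in these 5 and 0.54 in the group of 19, where it includes the 3 longer steps. The 5 covered 38.7% of 80561 bp, in which 11 peaks lay in all. The narrowest of the 5 thus had the highest score. The 5 domains at 3R 20848980 to 20901858 covered 61.8% of 52879 bp. Their widths were 4880, 8280, 8053, 6297 and 5145 bp, with scores of 255.57, 331.88, 279.13, 323.64 and 105.89. The last of them scored less than the other 4, and it began 100 bp after its neighbour. Among the groups of 4, the one at 3R 11156385 to 11199202 was the most filled, with domains over 85.0% of 42818 bp. The group at X 1757295 to 1819155, with the 16443 bp domain at its left end, had 4 domains over 49.1% of 61861 bp. Some groups of 4 had steps as short as those of the group of 19. The shortest was 5383 bp at 2R 4781027 to 4818601, 5658 bp at 2L 4943244 to 4981413 and 5726 bp at 2L 1147822 to 1176880. The longest steps of these groups were 15583, 22455 and 10769 bp.

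**Figure D4:**
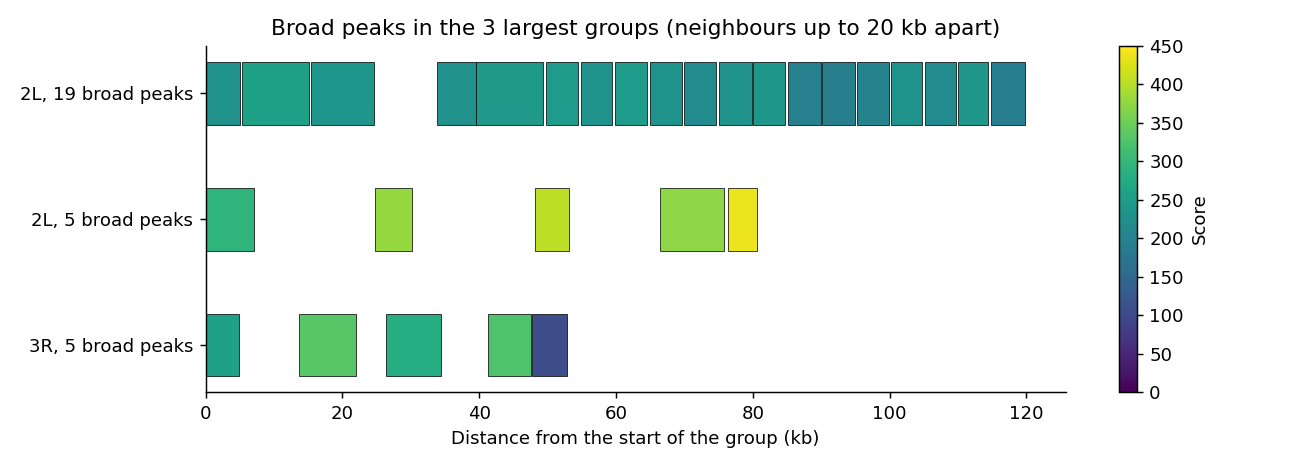
Domains of the 3 groups with most members, drawn to scale as boxes by distance in kb from the start of the group and coloured by score. The 19 domains of the first group have 15 start-to-start steps between 4830 and 5750 bp. The steps of the others run from 9995 to 24801 bp on 2L and from 6397 to 15008 bp on 3R.

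Some neighbouring domains were separated by less than the width of 1 nucleosome. The smallest gap was 54 bp, between a domain at 2L 4965699 to 4971544 that scored 326.27 and one at 4971599 to 4977094 that scored 287.32. Gaps of 57 bp on 2R, from 17512190 to 17512248, of 59 bp on 3R, from 11189667 to 11189727, of 73 bp on 2L, from 568174 to 568248, and of 75 bp in the group of 19 followed. In all, 21 of 538 neighbouring pairs were up to 200 bp apart and 57 up to 500 bp. Of the 57, 17 lie inside the group of 19, which leaves 40 of 520 pairs elsewhere. Across such gaps the scores could differ, as with 214.14 and 348.14 on either side of the 3R gap of 59 bp. The smallest gap between any peaks on the arms was 50 bp. Whether peaks this close belong to 1 marked stretch was not tested, and the width of a domain depends on how the list divides it.

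Stretches without a domain were long. The longest between neighbouring domains ran from 2L 13835130 to 15764135, over 1929 kb with 45 peaks in it, of which 29 were 1 kb or more. The next ran from 2L 8439925 to 9888026, over 1448 kb with 58 peaks, and from 3L 5145410 to 6479982, over 1335 kb with 75 peaks. Of these, 31 and 41 were 1 kb or more. Comparison peaks had densities of 25.3 per Mb on 2L and 27.1 per Mb on 3L. The stretches between domains thus held ordinary peaks, but those on 2L held fewer per Mb than their arm, unlike that on 3L. Stretches at the ends of arms are not ranked here, and that at the start of 2R was longer. The first domain of 2R began at 2521443, and the bins of 0 to 1 Mb and 1 to 2 Mb before it held 16 and 30 comparison peaks. The 5 domains farthest from another one were all on X. Those at 13049010 to 13055342 and 14132252 to 14136940 were each other's nearest at 1076909 bp, with scores of 213.19 and 398.41. On X 29 of 51 domains (56.9%) had no other within 100 kb, against 15 of 120 (12.5%, or 14.9% of 101 without the group of 19) on 2L and 30 of 141 (21.3%) on 3R. With fewer domains on X, larger distances between them follow.

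Most domains had a close neighbour of some width. A peak began within 1 kb of 83.2% of the domains (452 of 543, 79.8 to 86.3) and of 68.4% of the comparison peaks (66.8 to 70.0). Both sides had one at 38.1% of the domains (34.0 to 42.4) and 23.4% of the comparison peaks (21.97 to 24.8). At scores of 200 or more the shares with any peak within 1 kb were 83.1% and 73.7%. Only 27 domains (4.97%) had no peak within 10 kb, against 409 comparison peaks (12.0%). These 27 were 4175 to 8236 bp wide with scores from 80.7 to 442.36.

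The close neighbours of domains were more often other wide peaks, whereas narrow ones were about as frequent as beside comparison peaks. Of 1086 edges of domains, 60.7% had the next peak under 1 kb away, against 46.0% of 6826 edges of comparison peaks. Without the group of 19 these shares were 59.5% and 45.9%. The next peak under 1 kb was another domain at 11.4% of domain edges and 4.63% of comparison edges, or 8.59% and 4.61% without that group, and a peak of 1 kb to under 4 kb at 29.1% and 23.4%. It measured 500 bp to under 1 kb at 8.75% and 7.41%, and under 500 bp at 11.4% and 10.5%. Comparison peaks that were the next peak under 1 kb from a domain had a median score of 192.9 and a median width of 1897 bp, against 218.0 and 1988.5 bp for those next to another comparison peak.

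Narrow flanking peaks under 500 bp lay within 1 kb of 21.9% of the domains (119 of 543, 18.5 to 25.6) and 20.6% of the comparison peaks (703 of 3418, 19.2 to 21.96). These intervals overlap, and a difference was not detectable in these numbers. Both sides had a narrow peak at 7 domains (1.29%) and at 26 comparison peaks (0.761%). The 137 narrow peaks beside domains had a median score of 10.5 and a median width of 304 bp, the 735 beside comparison peaks 10.8 and 304 bp (14 of these were beside both), and the 650 beside neither 11.6 and 318 bp. Narrow peaks were similarly weak in these 3 sets. They crowded at the edge: the first 500 bp beside a domain held 20.4 narrow peaks per 100 edges and kb, the next 500 bp held 5.89, and the stretch from 10 to 20 kb held 2.83. Beside comparison peaks these densities were 17.1, 5.97 and 2.27. Crowding at the edge was not limited to narrow peaks. Peaks of 1 kb or more had densities of 70.0, 13.1 and 6.22 in the same stretches beside domains. Beside comparison peaks they had 46.3, 12.0 and 5.51. Most narrow peaks within 5 kb, 4 each, were found at the domains at 2R 19836854 to 19844969, which spanned 8116 bp and scored 212.95, and at 3R 1471513 to 1478401, which spanned 6889 bp and scored 394.43. The X domain of 16443 bp had 3. The share of domains with a narrow peak within 1 kb showed no steady trend with width. It was 21.2% at 4 kb to under 5 kb, 27.0%, 17.5% and 31.0% in the next classes, and 1 of 19 at 10 kb or more (0.133 to 26.0).

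**Figure D5:**
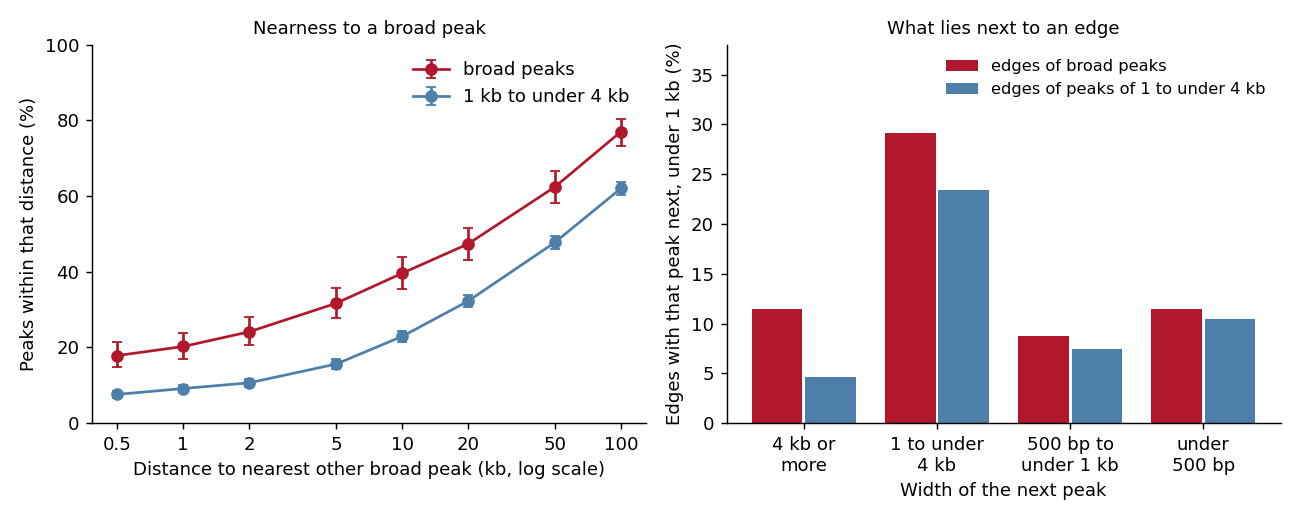
Left, cumulative percentage of domains (red) and comparison peaks (blue) with another domain within the distance on the x axis (kb, log scale), with exact 95% intervals; right, percentage of edges whose next peak is under 1 kb away, by the width of that peak. At 20 kb the shares are 47.3% and 32.2%, and at edges the classes are closest for next peaks under 500 bp, at 11.4% and 10.5%.

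Joining close peaks gave a second view of breadth. When peaks less than 500 bp apart were chained, the 543 domains fell into 471 chains with a median span of 7886 bp. Of these, 133 were a single peak, 51 held 2 or more domains and 146 spanned 10 kb or more. The longest chain, at 2L 21450235 to 21539542, spanned 89308 bp and held 16 of the 19 domains of the evenly spaced group. Next came 2R 4777295 to 4818601, with 11 peaks, 4 of them domains, over 41307 bp. A further 421 chains reached 4 kb without containing a domain, with a median span of 5497 bp and a median of 3 peaks. The longest of these, at 3L 5755608 to 5775414, covered 19807 bp with 10 peaks, none wider than 3165 bp. A domain of 4 kb or more in this list is thus an unbroken peak, and stretches marked over as great a length with small breaks are not among the 543.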

How the data were processed

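MACS2, BWA and CASAVA (versions 1.7.0.3 and 1.7.0.2) are named, with BDGP5 as the build, per the submitters' processing notes; order and settings are not given in the sources used here. The deposited list gives start, end and a score per peak, which is the authors' own value. Nothing in the list ties a peak to 1 of the 4 libraries.

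Peaks on 2L, 2R, 3L, 3R, 4 and X were classed by width as 4 kb or more, 1 kb to under 4 kb, 500 bp to under 1 kb, and under 500 bp. Distances are bases between edges. Domains up to 20 kb apart were linked into groups. The span of an arm is the stretch between its outermost peaks. Regions named by position follow a set rule: the 10 widest and 10 highest-scoring domains, the widest of each arm, those nearest the threshold, the extremes of score and score per kb, the 3 largest groups, the closest pairs, and the most distant domains. From these lists the text names the leading ones; other groups, chains and bins were named after their values were seen. The members and lists were chosen with earlier results of these data known. Python 3.11.15, numpy 2.4.6, scipy 1.17.1, pandas 2.3.3 and matplotlib 3.10.9 were used, and the functions for distances, groups and merging were tested on simulated data. Alternatives were other thresholds, merging, and lists without low scores.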

Additional observations from a re-analysis of the deposited data

How the results depend on the processing

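No paired analysis was possible because the list has no column for a replicate. Leaving out a replicate was not possible either. Of 36 alternatives, 28 were planned and 8 were added after the data were seen, namely those without the group of 19 on 2L and those with scores of 200 or more. The number of domains, 543, was 990 at a threshold of 3 kb, 307 at 5 kb, 892 once peaks with gaps under 500 bp were merged and 975 with gaps under 1000 bp merged. The median score per kb of domains minus that of comparison peaks, -44.1, was -41.0 at a threshold of 3 kb, -58.9 without the lowest 50% by score and -76.8 at scores of 200 or more. Without division by width the measure is the score itself, and the difference had the opposite sign, at 93.4. The X minus autosome difference in the domain share of peaks, -8.11 percentage points, was -16.8 by covered length and -4.22 after merging at 1000 bp, where the interval of the X share takes in the autosomal one. The excess of domains with another domain within 20 kb, 15.1 points, was 9.37 and 10.8 points after merging at 500 and 1000 bp. The counts moved because the definition of a domain changed, and the sign turned with the measure. The cause of the other shifts was not tested. Dropping the lowest 25% by score removes most narrow peaks themselves, so the shares with a narrow flanking peak were 2.03% and 2.07%, against 21.9% and 20.6% in the whole list, and their difference of -0.040 points says nothing about stability. The other 23 stayed within the main interval or within 1.5 times the main count, among them 7 for narrow flanking peaks, from 1.35 to 3.48 points, whose main interval of -2.06 to 5.07 points includes 0. Each main interval is that of the domain or X value, less the value of the other class taken as exact. It therefore leaves out the counting error of that other class. Library depth is unknown, and a place without a domain may still hold called peaks under 4 kb.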

Other observations

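No peak of 4 kb or more lay outside the 6 arms. The widest there was at 3LHet 594552 to 598245, which spanned 3694 bp and scored 384.13. A peak of 2322 bp on the same sequence, at 599039 to 601360, scored 299.44. Second in width was XHet 60185 to 63248, which spanned 3064 bp and scored 263.19.

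Among the chains of close peaks that hold no domain, 58 spanned 8 kb or more. After the 3L chain of 19807 bp came 2R 5463815 to 5482719, with 9 peaks over 18905 bp and none wider than 3250 bp, and 3L 6163884 to 6182299, with 9 peaks over 18416 bp. On X the longest was at 11461010 to 11473946, with 6 peaks over 12937 bp.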
